A study of Drosophila melanogaster with 30 samples.

Results

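The genes described are 9 components of the light response of Drosophila melanogaster photoreceptors: Arr1, Arr2, ninaE, ninaC, trp, trpl, norpA, inaD and inaC. The set was chosen with earlier results of these data known. Its genes were taken by gene name, and all 9 of the 14284 genes in the tables were found under these names in each of the 16 count tables. The histone marks studied, trimethylated lysine 4 (H3K4me3) and trimethylated lysine 27 (H3K27me3) of histone H3, had been profiled by chromatin immunoprecipitation and sequencing after digestion with micrococcal nuclease. The cells came from brains of larvae in the wandering phase of the L3 stage, and 4 groups were compared: neurons; neuroblasts carrying RNAi against brat; neuroblasts carrying RNAi against both brat and numb; and type I neuroblasts, neural stem cells whose labels read wt. Each group had 2 libraries per mark, and nothing says whether these came from separate animals. The labels call the RNAi neuroblasts tumor neuroblasts and do not say which neurons were isolated, so the neurons need not include photoreceptors. The RNAi driver and lines are not given in the sources used here.

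In the fly eye, light turns a rhodopsin into its active form, which acts through a Gq protein on phospholipase C and so opens the cation channels of the TRP family. A scaffold protein holds phospholipase C, the channel and protein kinase C together, and arrestins bind active rhodopsin and end the response. Most of these genes are known for their activity in differentiated photoreceptors. H3K4me3 is found at the starts of active genes, and H3K27me3 is the mark laid down by Polycomb repressive complex PRC2 over silent developmental genes.

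H3K4me3 reads were deposited as counts in a window of 501 bases at the outer start of each gene, and H3K27me3 reads as counts over the whole gene model. Levels are given as CPM (counts scaled to the library total, here with TMM factors) for H3K4me3, and as CPM per kilobase of gene model for H3K27me3. Each H3K4me3 library summed to between 2461222 and 12258131 counts, and each H3K27me3 library to between 15281722 and 25009648. The libraries of a group differed in how far the mark stood out of the background. The 90th percentile of all genes was 276.8 and 144.3 CPM of H3K4me3 in the 2 neuron libraries, against 292.3 and 207.7 CPM in type I neuroblasts. The median gene held 11.07 and 20.47 CPM in neurons, against 10.63 and 13.94 CPM in type I neuroblasts, so low CPM values also follow the background of a library. For H3K27me3 it was 19.6 and 11.8 CPM per kb in neurons, against 19.8 and 16.3 CPM per kb in type I neuroblasts. The labels also carry SBa codes of unstated meaning, which were read as a possible batch.

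At 7 of the 9 genes the start window held little H3K4me3 in any kind of cell, and Arr2 and norpA were the exceptions. In neurons Arr2 fell to 0.103 times its level in type I neuroblasts, and by edgeR, in the fit without a block, no other of the 9 genes passed the test in any of the 8 comparisons. Over the body of Arr2 the H3K27me3 level was higher in both neuron libraries than in all 6 neuroblast libraries, a difference that edgeR did not call and DESeq2 did. Genes beside Arr2 showed both differences too.

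The rhodopsin gene ninaE encodes the major visual pigment of the outer photoreceptors (FBgn0002940, 3R: 15711968 to 15713928, minus strand; coordinates throughout are those of the deposited tables, whose build the submitters' processing notes give as dm3). H3K4me3 at ninaE was 4.10 and 10.7 CPM in neurons, 4.87 and 9.96 CPM in brat RNAi, 11.9 and 9.88 CPM in brat numb RNAi and 2.76 and 8.43 CPM in type I neuroblasts. All 8 values were low, and the groups overlapped except that both brat numb RNAi libraries were above both type I libraries.

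norpA encodes the phospholipase C that rhodopsin activates through its G protein (FBgn0262738, X: 4216659 to 4258913, plus strand). Its H3K4me3 was 162 and 108 CPM in neurons, 67.9 and 93.8 CPM in brat RNAi, 76.7 and 104 CPM in brat numb RNAi and 115 and 85.0 CPM in type I neuroblasts. The mark was present in every group, at the 60.2nd to 81.6th percentile of all genes tested, and neurons overlapped type I neuroblasts. The start of norpA lies 425 bases from that of mRpL33, a mitochondrial ribosomal protein gene transcribed the other way, whose own window held 196 and 106 CPM in neurons and 196 and 115 CPM in type I neuroblasts. H3K4me3 of these 2 divergent starts cannot be told apart with certainty at this distance.

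The channel genes trp (FBgn0003861, 3R: 25740243 to 25746011, minus strand) and trpl (FBgn0005614, 2R: 5641202 to 5653023, plus strand) encode the light-activated cation channels. H3K4me3 at trp was 5.06 and 12.5 CPM in neurons, 6.59 and 7.71 CPM in brat RNAi, 13.0 and 8.77 CPM in brat numb RNAi and 3.18 and 5.95 CPM in type I neuroblasts. At trpl it was 6.83 and 11.3 CPM in neurons, 6.38 and 2.89 CPM in brat RNAi, 14.1 and 6.05 CPM in brat numb RNAi and 4.56 and 4.44 CPM in type I neuroblasts. These are low levels, resting on 9 to 87 reads, with neurons above both type I libraries at trpl and overlapping them at trp.

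inaD encodes the PDZ scaffold of the signalling complex (FBgn0001263, 2R: 18743211 to 18746317, minus strand), inaC the eye protein kinase C (FBgn0004784, 2R: 12786088 to 12789083, plus strand) and ninaC a class III myosin with a kinase domain (FBgn0002938, 2L: 7377718 to 7384344, plus strand). H3K4me3 at inaD was 6.15 and 17.1 CPM in neurons, 8.72 and 4.498 CPM in brat RNAi, 14.4 and 9.58 CPM in brat numb RNAi and 2.76 and 8.26 CPM in type I neuroblasts. At inaC the values were 5.74 and 9.58 CPM in neurons, 9.12 and 19.9 CPM in brat RNAi, 12.8 and 7.56 CPM in brat numb RNAi and 5.80 and 8.70 CPM in type I neuroblasts. The neuron libraries of both genes overlapped those of type I neuroblasts. At ninaC the mark was 6.97 and 9.29 CPM in neurons, 8.51 and 7.71 CPM in brat RNAi, 9.01 and 5.24 CPM in brat numb RNAi and 5.39 and 4.26 CPM in type I neuroblasts, so neurons lay above type I neuroblasts by a few CPM.

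The arrestin genes were unlike each other. H3K4me3 at Arr1 (FBgn0000120, 2L: 18078269 to 18081187, plus strand) was 6.15 and 9.15 CPM in neurons, 3.45 and 28.6 CPM in brat RNAi, 14.4 and 2.52 CPM in brat numb RNAi and 4.005 and 3.73 CPM in type I neuroblasts. Replicate 2 of brat RNAi, the shallowest library, stood apart with 89 reads. At Arr2, the major arrestin of the photoreceptor (FBgn0000121, 3L: 8640367 to 8642036, minus strand; window 8641536 to 8642036), H3K4me3 was 6.83 and 12.5 CPM in neurons, 60.3 and 40.8 CPM in brat RNAi, 50.1 and 136 CPM in brat numb RNAi and 64.5 and 123 CPM in type I neuroblasts. Both neuron libraries were lower than all 6 neuroblast libraries, and the neuroblast groups overlapped one another, except that both brat RNAi libraries lay just below both type I libraries.

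**Figure D1:**
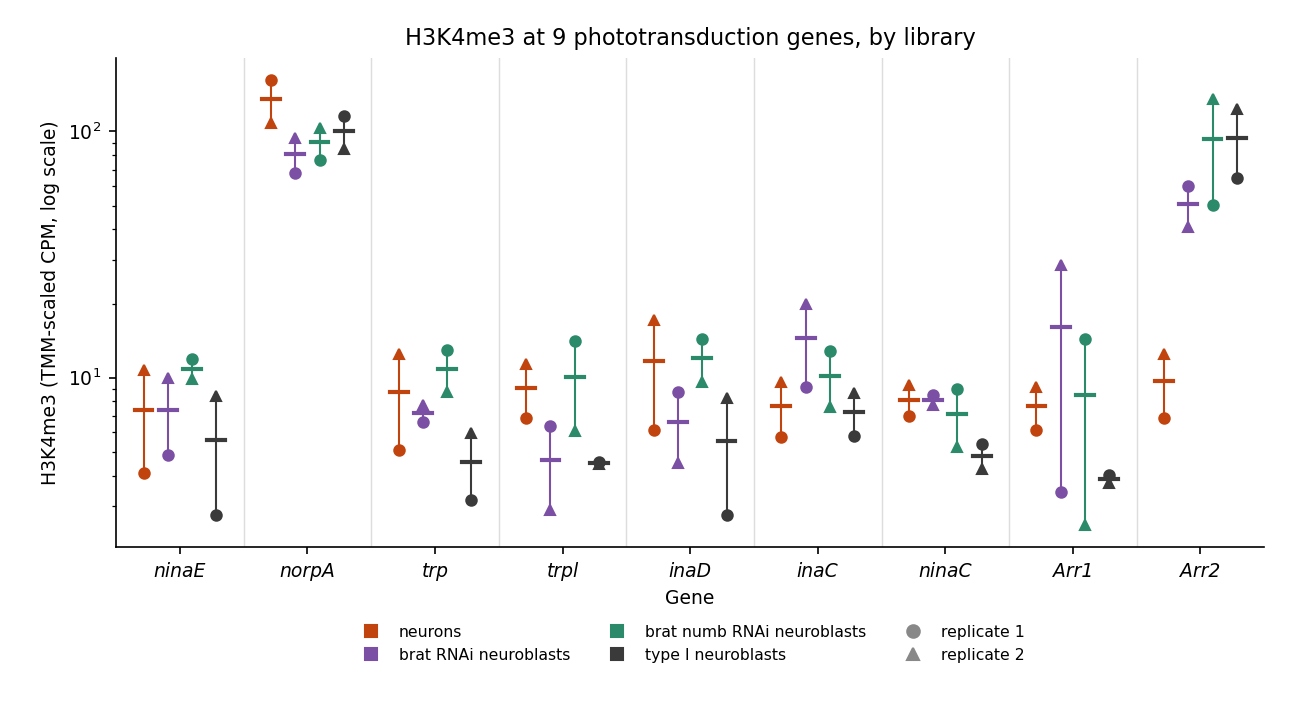
H3K4me3 in TMM-scaled CPM (log axis) at the start windows of the 9 genes in each of the 8 libraries; points are libraries, short bars the mean of the 2 libraries of a group. Arr2 sits at 6.83 and 12.5 CPM in neurons and above 40 CPM in every neuroblast library, norpA is high in all groups, and the other 7 genes stay between 2.52 and 28.6 CPM.

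Over the 7 genes other than Arr2 and norpA, the 56 H3K4me3 values ran from 2.52 to 28.6 CPM with a median of 7.64 CPM, and 55 of the 56 lay below the 50th percentile of genes in their library. These windows held 9 to 118 reads each. On this scale type I neuroblasts had the lowest mean at all 7, although neurons were below them at ninaE and inaC once the trend of the log ratio with abundance was removed. The highest group was brat numb RNAi for ninaE, trp, trpl and inaD, brat RNAi for Arr1 and inaC, and neurons for ninaC. Neighbours in these orders overlapped, except neurons over type I neuroblasts at Arr1, brat RNAi over type I neuroblasts at trp and neurons over brat RNAi at trpl. By percentile in each library, neurons and type I neuroblasts overlapped at Arr1, ninaC and trpl. At inaC neurons were then below type I neuroblasts, at the 23.7th and 17.8th percentile against the 39.4th and 39.7th.

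The comparison of neurons with type I neuroblasts sets differentiated cells beside stem cells; the labels do not tie these neurons to type I lineages. H3K4me3 at Arr2 averaged 9.66 ± 3.997 CPM in neurons and 93.8 ± 41.5 CPM in type I neuroblasts (SD, n = 2 each), a log2 fold change of -3.28 (SE 0.73) with an adjusted p of 0.010 by edgeR's quasi-likelihood test over all genes. Of the 9 genes, 1 was called, and it was lower in neurons. Across all genes tested the called share was 0.451%, in either direction. Since the 9 genes were chosen with earlier results of these data known, this share is no yardstick for their count. DESeq2 gave an adjusted p to 2 of the 9, of which it called 1, Arr2; it called 5.14% of the 7313 genes to which it gave one, and its shares are of such genes throughout. By edgeR, 1 of the 9 had an unadjusted p under 0.05, against 7.23% of all genes. The median log2 fold change of all genes was 0.24 here, and relative to it Arr2 changed by -3.52. Each library pools many cells, so fewer cells with the mark and less of it per cell cannot be told apart.

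The log2 ratio of neurons over type I neuroblasts at Arr2 was -3.19 among libraries of SBa code 27 and -3.28 among those of code 51. With the SBa code as a term in the fit, which left 1 residual degree of freedom, edgeR called 4 of the 9 (Arr1, Arr2, trpl and inaD) and 32.5% of all genes. The call at Arr2 was lost without replicate 1 of the neurons (log2 fold change -2.79, adjusted p = 0.17 by edgeR) and without replicate 2 of the type I neuroblasts (log2 fold change -2.74, adjusted p = 0.50 by edgeR), with the same direction in both. The 2 neuron windows held 50 and 86 reads, against 467 and 1387 in type I neuroblasts. It was also lost when the trend of the log ratio with abundance was removed from each library (log2 fold change -2.82, adjusted p = 0.061 by edgeR).

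The other 8 genes had log2 fold changes of H3K4me3 from 0.08 at inaC to 1.07 at inaD in neurons over type I neuroblasts (SE 0.66 to 0.86, adjusted p 0.78 to 0.97 by edgeR). At norpA the value was 0.43 (SE 0.66) and at Arr1 0.98 (SE 0.86). The median of all 9 was 0.75, against 0.24 for all genes. In CPM, neuron and type I libraries did not overlap at 4 of the 9 genes, Arr1, Arr2, ninaC and trpl, while 43.1% of all genes did not overlap in this comparison. By percentile in their library they did overlap at Arr1, ninaC and trpl. Among libraries of SBa codes 27 and 51 in turn, the log2 ratio was positive in both codes at each of these 8 genes except inaC (-0.014 and 0.136). It was 1.09 and 1.03 at inaD and 0.63 and 1.04 at trp, where the groups overlapped. The like share of all genes was not counted, so these signs are no result about the 8 genes. Replicate 1 of the neurons was above both type I libraries at 4 of the 9 genes, against 35.1% of all genes, and below both at 2, against 32.7%. Replicate 2 was above both at 7, against 51.7% of all genes, and below both at 1, against 36.8%.

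**Figure D2:**
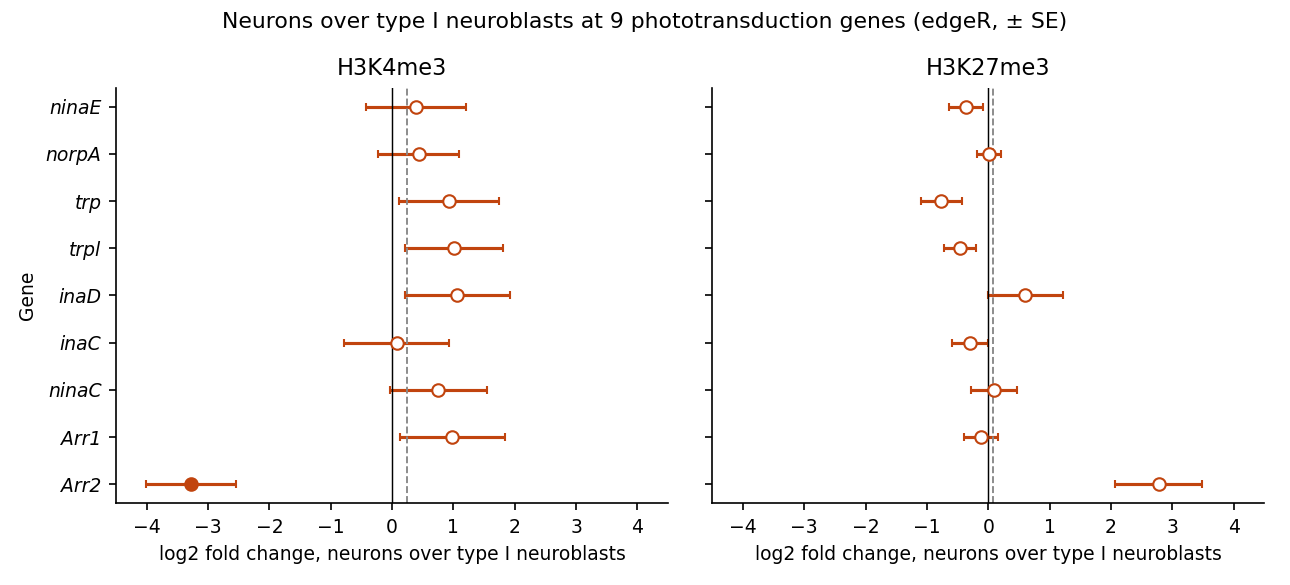
Log2 fold changes of neurons over type I neuroblasts with their standard errors (edgeR, all 8 libraries of a mark) for H3K4me3 (left) and H3K27me3 (right); filled points have an adjusted p under 0.05 and the dashed line is the median of all genes. Arr2 stands at -3.28 for H3K4me3 and at 2.78 for H3K27me3, and the other 8 genes lie between 0.08 and 1.07 for H3K4me3 and between -0.76 and 0.61 for H3K27me3.

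H3K27me3 gave another grouping of the genes. The scaffold gene inaD and the myosin gene ninaC were in the upper part of all genes in every library, from the 88.0th to the 97.1st percentile. At inaD the level was 61.6 and 13.8 CPM per kb in neurons, 28.9 and 16.7 CPM per kb in brat RNAi, 23.2 and 29.2 CPM per kb in brat numb RNAi and 29.8 and 19.7 CPM per kb in type I neuroblasts. The 2 neuron libraries were the highest and the lowest of the 8. At ninaC the same held, with 29.8 and 11.8 CPM per kb in neurons, 22.7 and 17.0 CPM per kb in brat RNAi, 14.6 and 15.5 CPM per kb in brat numb RNAi and 21.4 and 17.6 CPM per kb in type I neuroblasts.

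The channel genes had intermediate levels. H3K27me3 at trp was 11.3 and 8.14 CPM per kb in neurons, 21.4 and 10.99 CPM per kb in brat RNAi, 12.5 and 13.5 CPM per kb in brat numb RNAi and 17.4 and 15.6 CPM per kb in type I neuroblasts. At trpl it was 11.7 and 8.52 CPM per kb in neurons, 18.7 and 13.1 CPM per kb in brat RNAi, 10.4 and 12.0 CPM per kb in brat numb RNAi and 15.3 and 12.7 CPM per kb in type I neuroblasts. Neurons were below both type I libraries at both genes, without passing the test.

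Of the remaining genes, inaC was at the 47.0th to 85.8th percentile, and ninaE, norpA and Arr1 ran from the 27.8th to the 76.2nd. H3K27me3 at inaC was 10.8 and 8.59 CPM per kb in neurons, 15.0 and 15.9 CPM per kb in brat RNAi, 11.6 and 10.6 CPM per kb in brat numb RNAi and 13.4 and 10.3 CPM per kb in type I neuroblasts. At ninaE it was 7.86 and 8.30 CPM per kb in neurons, 9.69 and 7.58 CPM per kb in brat RNAi, 9.23 and 9.96 CPM per kb in brat numb RNAi and 11.3 and 9.50 CPM per kb in type I neuroblasts. Brat RNAi was highest at inaC, and neurons were lowest on average at both genes. At norpA the level was 10.4 and 7.65 CPM per kb in neurons, 14.6 and 13.3 CPM per kb in brat RNAi, 7.44 and 7.71 CPM per kb in brat numb RNAi and 9.72 and 8.18 CPM per kb in type I neuroblasts. At Arr1 it was 8.98 and 8.38 CPM per kb in neurons, 14.8 and 11.6 CPM per kb in brat RNAi, 7.51 and 7.61 CPM per kb in brat numb RNAi and 10.1 and 8.69 CPM per kb in type I neuroblasts. At norpA and Arr1 both brat RNAi libraries were above the other 6, and both brat numb RNAi libraries were below both type I libraries.

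At Arr2 the order was a different one: H3K27me3 was 128 and 21.1 CPM per kb in neurons, 5.86 and 4.58 CPM per kb in brat RNAi, 10.7 and 11.8 CPM per kb in brat numb RNAi and 13.1 and 8.55 CPM per kb in type I neuroblasts. Both neuron libraries lay above the other 6, although they differed from each other more than at any of the other 8 genes. Among all genes Arr2 was at the 99.4th and 97.7th percentile in neurons and at the 66.7th and 50.5th in type I neuroblasts. Both brat RNAi libraries were below all others.

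**Figure D3:**
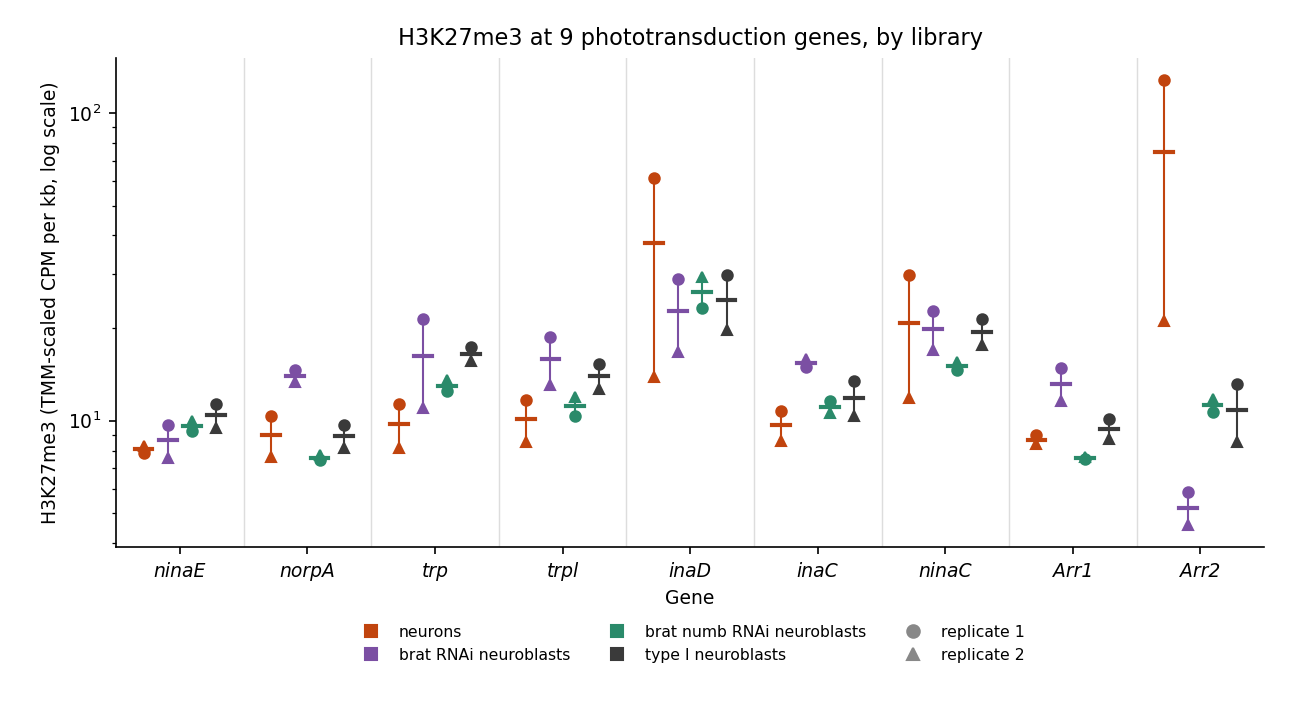
H3K27me3 in TMM-scaled CPM per kb of gene model (log axis) over the 9 genes in each of the 8 libraries; points are libraries, short bars the mean of the 2 libraries of a group. Arr2 reaches 128 and 21.1 CPM per kb in neurons, against 4.58 to 13.1 CPM per kb in the 6 neuroblast libraries, and brat RNAi is above the other groups at norpA, Arr1 and inaC.

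For H3K27me3 in neurons over type I neuroblasts, edgeR called 0 of the 9 genes and 0% of all genes. Arr2 was the 1 of 9 with an unadjusted p under 0.05, which 9.0% of all genes had. It was also the 1 of 9 that DESeq2 called, where the called share was 0.381% of 13636 genes. Arr2 averaged 74.7 ± 75.7 CPM per kb in neurons and 10.8 ± 3.24 CPM per kb in type I neuroblasts (SD, n = 2 each). The log2 fold change was 2.78 (SE 0.71), with an adjusted p of 0.53 by edgeR and 0.0062 by DESeq2. Without replicate 1 of the neurons the log2 fold change was 1.01 (adjusted p = 0.34 by edgeR), and without replicate 2 it was 3.57 (adjusted p = 0.0037 by edgeR). Within SBa code 26, the only one that neurons and type I neuroblasts share for this mark, the log2 ratio at Arr2 was 3.28.

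The other 8 genes had log2 fold changes of H3K27me3 from -0.76 at trp (SE 0.34) to 0.61 at inaD (SE 0.61), with adjusted p from 0.53 to 0.98 by edgeR. The median of the 9 was -0.12, against 0.08 for all genes. Neuron and type I libraries did not overlap at 4 of the 9, Arr2, ninaE, trp and trpl, while 42.7% of all genes did not overlap. Replicate 1 of the neurons was above both type I libraries at 4 of the 9 genes, against 32.9% of all genes, and below both at 3, against 32.6%. Replicate 2 was above both at 1, Arr2, against 43.1% of all genes, and below both at the other 8, against 42.4%. This second library had the narrowest spread of H3K27me3 among all genes, with a middle range of 7.49 to 9.99 CPM per kb between quartiles.

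Arr2 lies within the gene model of CG6486, which runs the other way (3L: 8640245 to 8644111, 3867 bases). All 1670 bases of Arr2 are inside it, and whether a read there was counted for both genes is not stated. Arr2 held 139 to 2876 H3K27me3 reads per library, so reads in the overlap were not left out of its count. The H3K27me3 values of Arr2 and CG6486 may thus rest on shared reads. The H3K4me3 window of Arr2 is 790 bases from that of CG6486 and lies 1291 to 1791 bases downstream of the start of CG6486. H3K4me3 spreading from the start of CG6486 and H3K4me3 of the start of Arr2 cannot be told apart from these counts.

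H3K4me3 fell in neurons at CG6486 too, with 11.8 and 25.3 CPM in neurons, against 227 and 217 CPM in type I neuroblasts (log2 fold change -3.59, SE 0.74, adjusted p = 0.0019 by edgeR). The other genes of the region, apart from the next gene on the right, were chosen after their values were seen. Cdc6, which loads the replicative helicase at origins and starts 14855 bases to the left, fell to 24.9 and 17.9 CPM in neurons, against 172 and 162 CPM in type I neuroblasts (log2 fold change -2.96, SE 0.71, adjusted p = 0.021 by edgeR). At CG13305, 448 bases from Arr2 on the left, the values were 6.29 and 18.4 CPM in neurons and 38.2 and 77.3 CPM in type I neuroblasts (log2 fold change -2.23, SE 0.70, adjusted p = 0.13 by edgeR). Of Arr2 and the 10 genes next to it on each side, 3 of 21 were called by edgeR for H3K4me3, all of them lower, against 0.451% of all genes. DESeq2 called 4, CG13305 being the further one (adjusted p = 0.011), against 5.14% of the genes to which it gave an adjusted p. Arr2, around which the region was drawn, and CG6486, whose model contains it, are among those called. These counts were thus partly fixed by the choice of region, and the shares of all genes are no yardstick for them.

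In brat RNAi and brat numb RNAi neuroblasts the window of CG6486 also held H3K4me3, with 179 and 131 CPM in brat RNAi and 167 and 222 CPM in brat numb RNAi. For H3K27me3, CG6486 held 130 and 23.2 CPM per kb in neurons, against 10.53 and 8.65 CPM per kb in type I neuroblasts (log2 fold change 3.001, SE 0.68). The neighbouring CG13305 held 102 and 17.99 CPM per kb in neurons, against 6.94 and 5.53 CPM per kb in type I neuroblasts (log2 fold change 3.27, SE 0.69). Cpr66D, a cuticle protein gene whose start is 8462 bases to the left, held 90.7 and 18.5 CPM per kb in neurons, against 6.06 and 4.998 CPM per kb in type I neuroblasts (log2 fold change 3.30, SE 0.63). Cpr66D is without much H3K4me3 in either group, with 3.01 and 9.002 CPM in neurons and 6.21 and 13.7 CPM in type I neuroblasts.

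Further left by gene start the difference was smaller, with a log2 fold change of H3K27me3 of 0.77 (SE 0.30) at Cdc6 and of 1.68 (SE 0.39) at Zasp66. The gene model of Cdc6 lies within that of Zasp66, as Arr2 lies within CG6486, so such pairs are not separate measurements of H3K27me3. On the right the next gene, the hairy gene h, starts 26823 bases away and held 21.3 and 9.96 CPM per kb in neurons, against 13.6 and 11.7 CPM per kb in type I neuroblasts (log2 fold change 0.30, SE 0.41). The neuron libraries there enclosed those of type I neuroblasts. edgeR called 0 of these 21 genes for H3K27me3, with adjusted p from 0.53, and DESeq2 called 5, against 0.381% of genes: Arr2, CG6486, CG13305, Cpr66D and Zasp66. Because the region was drawn around Arr2, this count too was partly fixed by the choice. Both neuron libraries were above both type I libraries in H3K27me3 at 7 of the 21 genes and below them at 5, the chorion genes Cp18, Cp15, Cp19 and Cp16 and the paramyosin gene Prm. In H3K4me3 they were above at 0 and below at 8. Over all genes, in either direction, the libraries of the 2 groups did not overlap at 42.7% for H3K27me3 and at 43.1% for H3K4me3.

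**Figure D4:**
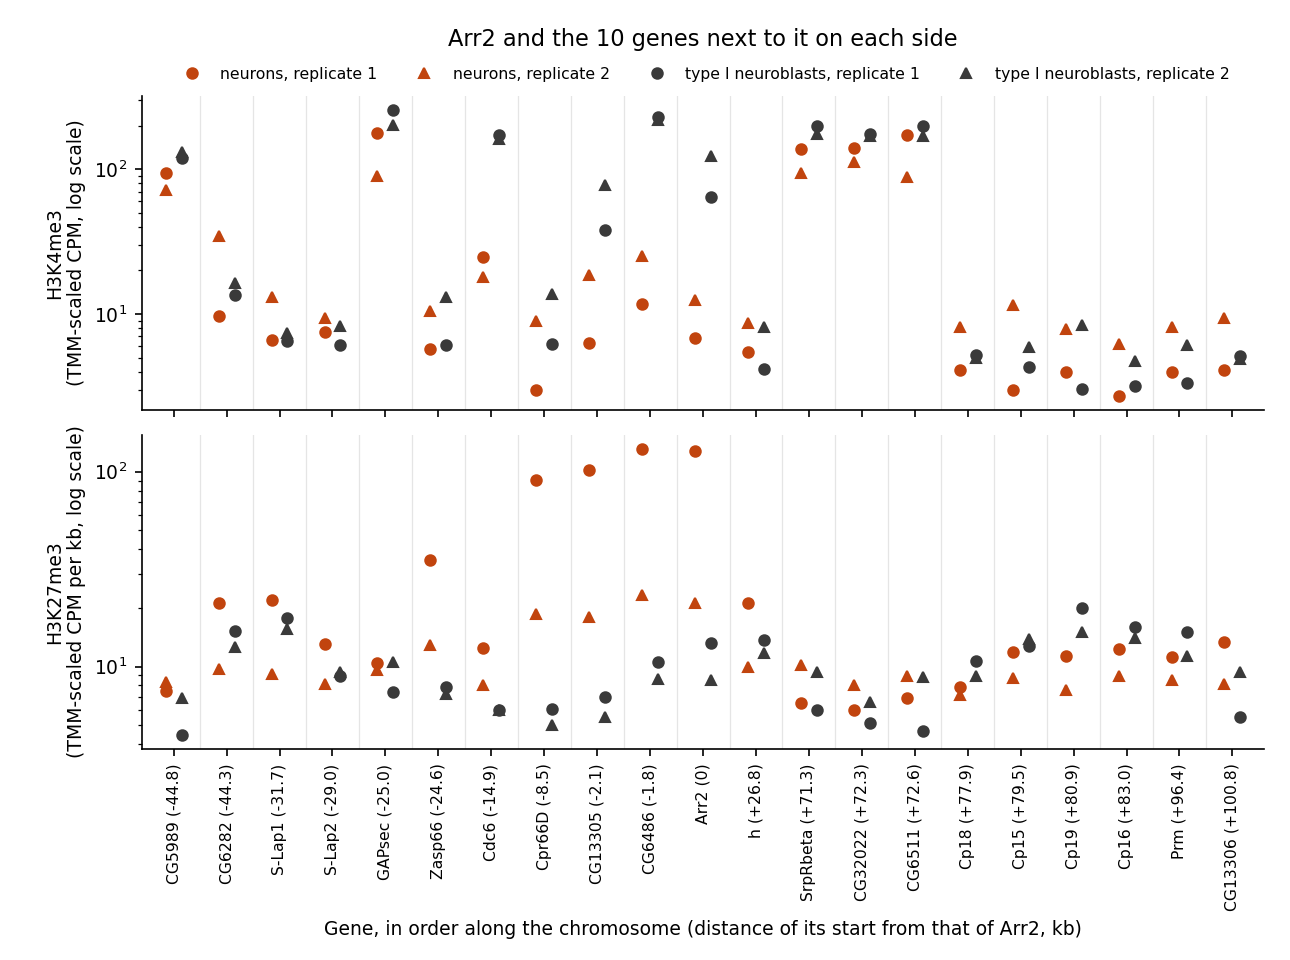
H3K4me3 (top, CPM) and H3K27me3 (bottom, CPM per kb) in each neuron and type I neuroblast library for Arr2 and the 10 genes next to it on each side, in order along the chromosome, on log axes. Both neuron libraries are above both type I libraries in H3K27me3 at CG5989, Zasp66, Cdc6, Cpr66D, CG13305, CG6486 and Arr2 and below at Cp18, Cp15, Cp19, Cp16 and Prm, and they are below in H3K4me3 at CG5989, GAPsec, Cdc6, CG13305, CG6486, Arr2, SrpRbeta and CG32022.

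Neighbours of the other 8 genes did not pass edgeR's test in either mark in this comparison. inaD, whose H3K27me3 was high, touches the ribosomal protein gene RpL23, which held 17.6 and 10.97 CPM per kb in neurons and 11.6 and 9.22 CPM per kb in type I neuroblasts. On its other side lies the forkhead gene fd59A, whose start is 7727 bases away, with 73.8 and 14.3 CPM per kb in neurons and 52.0 and 29.8 CPM per kb in type I neuroblasts. As at inaD, the neuron libraries were the highest and the lowest of these values. Wnt10, a Wnt ligand gene 189 bases from ninaC, held 51.8 and 14.2 CPM per kb in neurons and 27.7 and 20.5 CPM per kb in type I neuroblasts. ninaD, the scavenger receptor gene of carotenoid uptake, lies 442 bases from Arr1 and had 6.01 and 14.8 CPM of H3K4me3 in neurons, against 4.005 and 6.21 CPM in type I neuroblasts.

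Brat RNAi over type I neuroblasts sets tumor cells beside wt stem cells. Only the wt group carries the name type I. Tumor state and kind of neuroblast thus cannot be told apart here, nor in the comparison of brat numb RNAi with type I neuroblasts. For H3K4me3 edgeR called 0 of the 9 genes, against 0.0987% of all genes. Arr1 alone had an unadjusted p under 0.05, as did 5.52% of all genes, and DESeq2 called 0, against 1.3% of the 9237 genes to which it gave an adjusted p, 3 of the 9 among them. Arr1 had a log2 fold change of 2.02 (SE 0.88, adjusted p = 0.78 by edgeR). Without replicate 2 of brat RNAi it was -0.08, so the value rests on that library. Among libraries of SBa code 27 the log2 ratio at Arr1 was -0.20.

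With the SBa code as a term edgeR called 1 of the 9, inaD, and 4.03% of all genes. Arr2 averaged 50.6 ± 13.8 CPM of H3K4me3 in brat RNAi and 93.8 ± 41.5 CPM in type I neuroblasts (SD, n = 2 each; log2 fold change -0.89, SE 0.67, adjusted p = 0.80 by edgeR). Among libraries of SBa code 27 it was -0.10. At norpA the log2 fold change was -0.31 (SE 0.66). The median of the 9 genes was 0.36, against -0.02 for all genes.

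For H3K27me3 in the same comparison edgeR called 0 of 9 and 0% of all genes, and DESeq2 called 0 of 9 and 0.419% of 9787 genes. norpA was the 1 of 9 with an unadjusted p under 0.05, which 5.94% of all genes had. norpA averaged 14.0 ± 0.88 CPM per kb in brat RNAi and 8.95 ± 1.09 CPM per kb in type I neuroblasts (SD, n = 2 each; log2 fold change 0.64, SE 0.20, adjusted p = 0.68 by edgeR). Arr2 went the other way, with 5.22 ± 0.90 CPM per kb in brat RNAi and 10.8 ± 3.24 CPM per kb in type I neuroblasts (log2 fold change -1.06, SE 0.69, adjusted p = 0.93 by edgeR). The median of the 9 was 0.03, against -0.01 for all genes.

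In brat numb RNAi over type I neuroblasts neither edgeR nor DESeq2 called any of the 9 genes in the fits without a block, and the groups of Arr2 overlapped in both marks. For H3K4me3 edgeR called 0 of 9 and 0% of all genes, and 0 of 9 had an unadjusted p under 0.05, against 3.26% of all genes. DESeq2 called 0 of 9 and 0.0423% of 14186 genes. Arr2 averaged 93.0 ± 60.7 CPM in brat numb RNAi and 93.8 ± 41.5 CPM in type I neuroblasts (SD, n = 2 each; log2 fold change -0.01, SE 0.67, adjusted p = 0.99 by edgeR). norpA averaged 90.2 ± 19.0 CPM in brat numb RNAi and 100.1 ± 21.5 CPM in type I neuroblasts (log2 fold change -0.15, SE 0.66). With the SBa code as a term edgeR called 2 of the 9, Arr1 and inaD, and 2.44% of all genes, and the log2 fold change of Arr2 was 1.62 without being called. No SBa code holds both groups. The median of the 9 was 0.94, against 0.27 for all genes.

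For H3K27me3 in brat numb RNAi over type I neuroblasts edgeR called 0 of 9 and 0% of all genes, with 0 of 9 and 2.96% of all genes at an unadjusted p under 0.05. DESeq2 called 0 of 9 and 0% of 14186 genes. Arr2 had a log2 fold change of 0.05 (SE 0.67) and norpA of -0.24 (SE 0.20). The median of the 9 was -0.24, against -0.02 for all genes.

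Brat numb RNAi was also set against brat RNAi, which differ in the RNAi against numb. For H3K4me3 edgeR called 0 of 9 and 0% of all genes, and 0 of 9 had an unadjusted p under 0.05, against 1.52% of all genes. DESeq2 called 0 of 9 and 0.0775% of 14186 genes. Arr2 averaged 93.0 ± 60.7 CPM in brat numb RNAi and 50.6 ± 13.8 CPM in brat RNAi (SD, n = 2 each; log2 fold change 0.88, SE 0.67, adjusted p = 1.0 by edgeR). Among libraries of SBa code 68 the log2 ratio was 1.73. Replicate 2 of brat numb RNAi carried that difference, since without it the log2 fold change was -0.02. With the SBa code as a term edgeR called 3 of the 9, Arr1, Arr2 and inaC, and 26.9% of all genes.

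For H3K27me3 in brat numb RNAi over brat RNAi edgeR called 0 of 9 and 0% of all genes. norpA and Arr1 were the 2 of 9 with an unadjusted p under 0.05, which 18.8% of all genes had. DESeq2 gave an adjusted p to 3 of the 9, of which it called 1, norpA; it called 5.98% of the 1539 genes to which it gave one. norpA averaged 7.58 ± 0.19 CPM per kb in brat numb RNAi and 14.0 ± 0.88 CPM per kb in brat RNAi (SD, n = 2 each; log2 fold change -0.88, SE 0.20). Its adjusted p was 0.20 by edgeR and 0.049 by DESeq2, and with the replicate number as a block it was 0.044 by edgeR, a fit that called 0.663% of all genes. Across genes, the difference of replicate 1 and 2 correlated at -0.41 between these groups for this mark. The block may thus pair unlike libraries. Among libraries of SBa code 68 the log2 ratio at norpA was -0.79. Arr2 averaged 11.2 ± 0.74 CPM per kb in brat numb RNAi and 5.22 ± 0.90 CPM per kb in brat RNAi (log2 fold change 1.11, SE 0.69, adjusted p = 0.37 by edgeR), with libraries that did not overlap. The median of the 9 was -0.40, against 0 for all genes at 2 decimals.

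The 3 comparisons with type I neuroblasts share those libraries, and their values for a gene are not independent of one another. At Arr2 the log2 fold changes of H3K4me3 over type I neuroblasts were -3.28 in neurons, -0.89 in brat RNAi and -0.01 in brat numb RNAi, and those of H3K27me3 were 2.78, -1.06 and 0.05 in the same order of groups.

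Other genes of the light response were read from 7 lists with 52 genes, all of which were matched and tested. In neurons over type I neuroblasts edgeR called 0 of the 52 for H3K4me3, against 0.451% of all genes. DESeq2 called 0, against 5.14% of the genes to which it gave an adjusted p. By edgeR 3 had an unadjusted p under 0.05, where 7.23% of all genes did. The median log2 fold change of the 52 was 0.30, against 0.24 for all genes. For H3K27me3 edgeR called 0 of the 52 and 0% of all genes, and DESeq2 called 0, against 0.381% of genes. By edgeR 7 had an unadjusted p under 0.05, where 9.0% of all genes did. The median was -0.14, against 0.08 for all genes.

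Among 6 further rhodopsin genes H3K4me3 was low, from 3.96 to 18.3 CPM in neurons and from 2.76 to 16.7 CPM in type I neuroblasts, and the median log2 fold change was 0.41. The largest differences were at Rh7, with 9.71 and 9.44 CPM in neurons and 3.04 and 4.97 CPM in type I neuroblasts, and at Rh6, with 4.24 and 12.2 CPM in neurons and 4.42 and 6.04 CPM in type I neuroblasts. Of the 9 genes of the G protein and phospholipid cycle, Ggamma30A had 31.3 and 15.7 CPM in neurons and 69.9 and 51.9 CPM in type I neuroblasts (log2 fold change -1.37, SE 0.69), and the diacylglycerol kinase gene rdgA had 8.20 and 22.1 CPM in neurons and 19.9 and 36.9 CPM in type I neuroblasts (log2 fold change -0.91, SE 0.72). The list's median was 0.11.

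Of the 8 channel and calcium genes, the calmodulin gene Cam had 70.1 and 92.2 CPM of H3K4me3 in neurons and 235 and 200 CPM in type I neuroblasts (log2 fold change -1.42, SE 0.67, adjusted p = 0.61 by edgeR), and the sodium and calcium exchanger gene Calx had 9.16 and 13.9 CPM in neurons and 5.11 and 6.39 CPM in type I neuroblasts. The list's median was 0.41, and its entries Xport and CG42508 share one gene model and identical counts. Of the 5 deactivation genes, stops had 11.1 and 25.7 CPM in neurons and 6.21 and 6.04 CPM in type I neuroblasts, and the rhodopsin phosphatase gene rdgC had 7.52 and 9.44 CPM in neurons and 4.56 and 3.55 CPM in type I neuroblasts. Both neuron libraries were above both type I libraries at Calx, stops and rdgC, without passing the test.

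Of the 8 genes of chromophore supply and rhodopsin maturation, santa-maria, a scavenger receptor gene of carotenoid transport, had 8.88 and 10.02 CPM of H3K4me3 in neurons and 3.59 and 4.26 CPM in type I neuroblasts. ninaD was given above. Of the 6 genes of photoreceptor structure and transmitter, the extracellular matrix gene eys had 12.4 and 25.4 CPM in neurons and 10.2 and 6.21 CPM in type I neuroblasts, and Hdc, the histidine decarboxylase that makes the photoreceptor transmitter histamine, had 8.47 and 19.6 CPM in neurons and 4.42 and 9.05 CPM in type I neuroblasts. The medians of the 2 lists were 0.32 and 0.68. Of the 10 transcription factor genes of the photoreceptor lineage, ey had 8.75 and 9.44 CPM in neurons and 4.83 and 1.33 CPM in type I neuroblasts, and oc had 23.0 and 20.6 CPM in neurons and 49.99 and 31.5 CPM in type I neuroblasts.

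These 10 transcription factor genes carried the most H3K27me3 of the lists. It ran from 28.7 to 107 CPM per kb in replicate 1 of the neurons, from 11.3 to 26.7 CPM per kb in replicate 2, and from 14.5 to 71.1 CPM per kb over both type I libraries. Replicate 1 of the neurons was above both type I libraries at 10 of the 10, against 32.9% of all genes, and replicate 2 was above both at 0, against 43.1%, and below both at 9, against 42.4%. The list's median log2 fold change was 0.67, and edgeR called 0 of the 10, against 0% of all genes. By edgeR 0 had an unadjusted p under 0.05, against 9.0% of all genes, and DESeq2 called 0, against 0.381% of genes. At Arr2, set beside them, both neuron libraries were above both type I libraries.

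**Figure D5:**
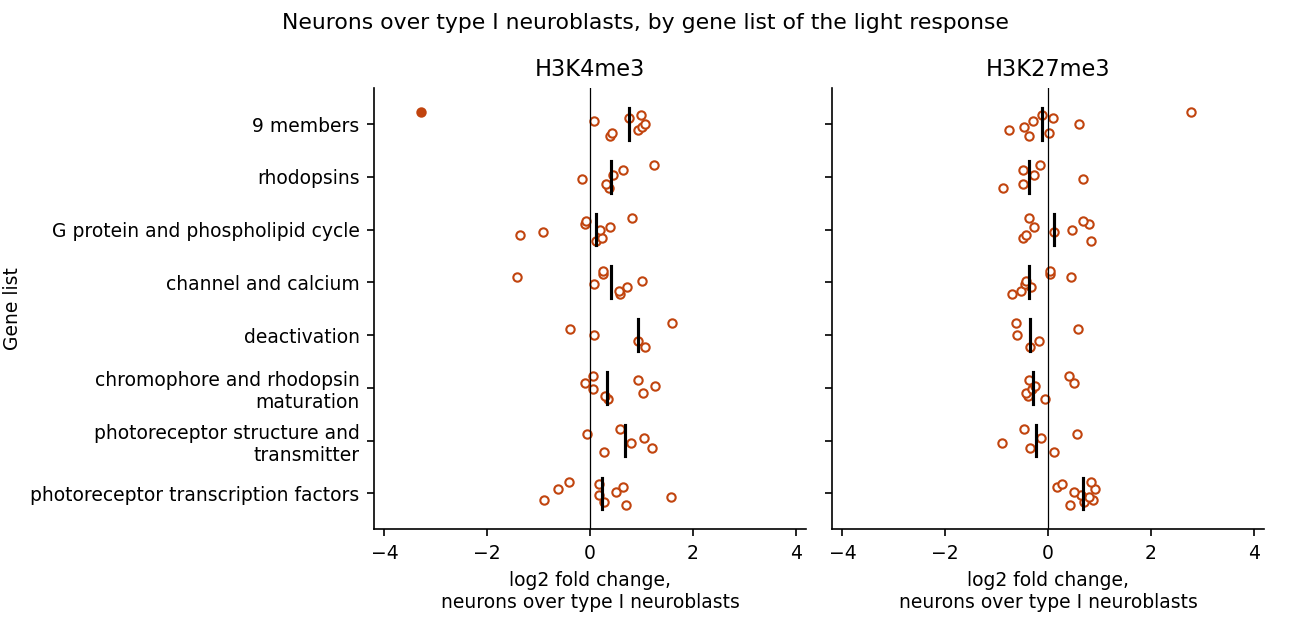
Log2 fold changes of neurons over type I neuroblasts for the 9 genes and for 52 further genes of the light response in 7 lists, for H3K4me3 (left) and H3K27me3 (right); points are genes, bars the list medians, and the filled point has an adjusted p under 0.05 by edgeR. Arr2 lies apart at -3.28 and 2.78, while the 52 genes run from -1.42 to 1.58 for H3K4me3 and from -0.91 to 0.91 for H3K27me3.

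In brat RNAi over type I neuroblasts edgeR called 1 of the 52 for H3K4me3, against 0.0987% of all genes. This was oc, a homeobox gene of the visual system, which fell to 3.65 and 4.82 CPM in brat RNAi, against 49.99 and 31.5 CPM in type I neuroblasts (log2 fold change -3.28, SE 0.81, adjusted p = 0.049 by edgeR). DESeq2 called 3 of the 52 for H3K4me3: oc, the apical polarity gene crb and the Pax gene toy, against 1.3% of the genes to which it gave an adjusted p. At crb the level was 43.3 and 56.9 CPM in brat RNAi, against 9.53 and 13.9 CPM in type I neuroblasts (log2 fold change 2.09, SE 0.75, adjusted p = 0.50 by edgeR and 0.010 by DESeq2). At toy it was 8.41 and 23.1 CPM in brat RNAi, against 74.0 and 51.9 CPM in type I neuroblasts (log2 fold change -2.02, SE 0.70, adjusted p = 0.44 by edgeR and 0.049 by DESeq2). By edgeR the other 51 did not pass. For H3K27me3 edgeR called 0 of the 52 and 0% of all genes in this comparison. DESeq2 called 2, so and eya, against 0.419% of genes, and 5 had an unadjusted p under 0.05 by edgeR, against 5.94% of all genes. In brat numb RNAi over type I neuroblasts edgeR called 0 of the 52 and 0% of all genes for either mark. DESeq2 called 0, against 0.0423% of genes for H3K4me3 and 0% for H3K27me3. By edgeR 1 for each mark had an unadjusted p under 0.05, against 3.26% of all genes for H3K4me3 and 2.96% for H3K27me3.

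The genes most like Arr2 over the 8 H3K4me3 libraries, by Pearson's r of log2 CPM among 8039 genes with a mean no more than 2 log2 units below that of Arr2, were Nxf3 (r = 0.995), blot (0.992), apt (0.989), Tollo (0.989) and Dscam4 (0.989). Of these, apt and Tollo passed edgeR's test in neurons over type I neuroblasts, with log2 fold changes of -2.62 (SE 0.70, adjusted p = 0.046) and -2.88 (SE 0.72, adjusted p = 0.030). The other 3 had log2 fold changes from -2.35 to -1.92. For H3K27me3, among 13040 genes, they were CG6486 (r = 0.985), vvl (0.985), CG7523 (0.984), CG13083 (0.983) and shg (0.981). CG6486 shares sequence with Arr2, and vvl, a POU domain transcription factor gene, had a log2 fold change of 2.69 (SE 0.66). All of these genes were picked for following Arr2 over these same 8 libraries, neurons included. Their differences between neurons and type I neuroblasts were thus partly fixed by the choice. The called share of 0.451% of all genes for H3K4me3 is therefore no yardstick for them. These libraries share the depth and background of their group, and the correlations are descriptions over 8 libraries.

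Marker genes were read for the labels and for other cells. H3K4me3 at 7 neuroblast markers summed to 191 and 198 CPM in neurons and to 1191 and 1009 CPM in type I neuroblasts. All 7 were lower in neurons, and edgeR called 4, against 0.451% of all genes. In brat RNAi over type I neuroblasts all 7 were lower too, and edgeR called 1, ase, against 0.0987% of all genes. H3K4me3 at ase was 8.41 and 34.1 CPM in brat RNAi, against 156.5 and 180.2 CPM in type I neuroblasts (log2 fold change -3.01, SE 0.72, adjusted p = 0.040 by edgeR). The 6 neuronal markers summed to 615 and 440 CPM in neurons and to 445 and 204 CPM in type I neuroblasts, with 0 called. Arr2 was thus low in the libraries in which neuroblast markers were low, and the part of cell composition in its value was not tested. The 6 photoreceptor markers chp, gl, Rh5, Rh6, Pph13 and eys summed to 47.6 and 98.6 CPM in neurons, 49.3 and 55.9 CPM in brat RNAi, 73.9 and 55.5 CPM in brat numb RNAi and 37.4 and 59.3 CPM in type I neuroblasts, with no count of 0 and 0 of 6 called. The 5 glial markers summed to 134 and 76.5 CPM in neurons and 283 and 197 CPM in type I neuroblasts. Of these 5, loco and Eaat1 were lower in neurons and the other 3 higher, with 0 called. Hemocyte markers summed to 24.9 and 37.5 CPM in neurons and 17.5 and 19.1 CPM in type I neuroblasts. Muscle markers summed to 67.3 and 115 CPM in neurons and 99.2 and 108 CPM in type I neuroblasts. Mef2 made up most of each muscle sum and had a negative log2 fold change, while the other 3 were higher in neurons. The part of glia, hemocytes and muscle was not tested.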

How the data were processed

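The marks H3K4me3 and H3K27me3 were measured by MNase ChIP-seq in 16 libraries of Drosophila melanogaster larval brain cells, 2 per group and mark; the 14 input samples were not analysed here. The authors deposited 1 count per gene and library, a whole number of reads with no normalization, as the values show. Bowtie2 2.2.4, deepTools 2.5.0.1, bedtools 2.25.0 and the build dm3 are named in the submitters' processing notes; counting settings, strand use and duplicate handling are not given in the sources used here. The RNA of these genes was not measured, and a gene has 1 H3K4me3 window, so a further start inside it is not covered.

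The test was the robust quasi-likelihood F-test of edgeR 4.0.16 (R 4.3.3), with TMM scaling and the tool's default filter on low counts, on all 8 libraries of a mark, with group means and 4 residual degrees of freedom. This left 14185 genes for H3K4me3 and 14182 for H3K27me3, and all 9 genes passed the filter in both. P values were adjusted over all genes tested by the Benjamini-Hochberg method with a threshold of 0.05. A standard error (SE) is the absolute log2 fold change over the square root of F. With 2 libraries per group that are not stated to come from separate animals, the spread behind each p value is that between these samples and may be technical. The fit was also run on simulated data with known changes, as a check of the code. The simulated data had a common dispersion and unlinked libraries, and were changed only at genes above the median level. They are thus no measure of the test at genes with little of the mark. DESeq2 1.42.0 was the second tool.

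Levels are TMM-scaled CPM. A percentile is a gene's rank by level among the genes tested, in that library. The 9 genes and the gene lists were chosen with earlier results of these data known. Other genes of the lists are named where they passed the test, or, for a list where none did, up to 2 with the largest absolute log2 fold change of H3K4me3 in neurons over type I neuroblasts; neighbours are the nearest gene on each side. Of 85 list entries 84 were matched by symbol or synonym, and the neuronal marker nSyb was left out. Replicate numbers are not stated to pair libraries. Across genes, the difference of replicate 1 and 2 correlated from 0.45 to 0.74 among neurons, brat RNAi and type I neuroblasts. Between brat numb RNAi and each of these groups it correlated from -0.62 to -0.31. The numbers were not used as a block in the main fit, whose standard errors leave out any such link between libraries. Alternatives were other scalings, no filter, DESeq2, 2 groups only, blocks and leaving out each library.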

Additional observations from a re-analysis of the deposited data

How the results depend on the processing

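Over all alternatives, 120 counts of called genes stayed within 1.5 times their main value and 12 did not; of the log2 fold changes 428 kept direction and side of the threshold, 41 turned and 11 crossed it, and 127 of 144 levels moved by less than 1 SD. A count of 0 that stayed 0 is among the 120, and the main count was 0 except for H3K4me3 in neurons over type I neuroblasts. The SD is that of 2 libraries and can be wide, as for H3K27me3 at Arr2 in neurons (75.7 for a mean of 74.7 CPM per kb). For H3K4me3 in neurons over type I neuroblasts, the count of 1 became 0 with abundance-trend offsets, and 0 to 1 on leaving out 1 library each; there Arr2 ranged from -3.84 to -2.74. A block on SBa codes left 1 residual degree of freedom, and the H3K4me3 counts were then 4 (neurons), 1 (brat RNAi) and 2 (brat numb RNAi) over type I neuroblasts and 3 (brat numb over brat RNAi), against 32.5%, 4.03%, 2.44% and 26.9% of all genes in that order. That block could not be fitted for H3K27me3. For H3K27me3 in neurons over type I neuroblasts DESeq2 called 1, and leaving out 1 library each gave 0 to 1, with Arr2 from 1.01 to 3.57; in brat numb over brat RNAi DESeq2 called 1. The cause of these changes was not tested.

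With the replicate number as a block, which the labels do not say pairs libraries, brat numb over brat RNAi gave 1 call for H3K27me3 (norpA), and Arr2 in neurons over type I neuroblasts had -3.27 for H3K4me3 (adjusted p = 0.013 by edgeR) and 2.54 for H3K27me3. With the brat numb RNAi numbers crossed, an alternative chosen after seeing the data, there were 2 calls (norpA and Arr1) for H3K27me3 in brat numb over brat RNAi, against 11.1% of all genes.

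Among the log2 fold changes followed, signs turned as given here. Genes not followed could turn too, as trp did for H3K27me3 in brat RNAi over type I neuroblasts (-0.024 by edgeR and 0.018 by DESeq2). For H3K4me3 over type I neuroblasts, inaC in neurons was -0.072 by DESeq2, -0.07 with DESeq2 size factors and -0.54 with abundance-trend offsets, which gave -0.30 for ninaE. Arr1 in brat RNAi was -0.026 with the SBa block, and norpA there 0.31 with abundance-trend offsets and 0.18 with library totals. In brat numb RNAi, Arr2 was 1.62 with the SBa block, 0.32 with library totals and 0.089 with only the 2 groups compared, and norpA 0.50 with abundance-trend offsets, 0.39 with library totals and 0.038 with only the 2 groups. For H3K27me3, library totals gave -0.022 for ninaC and -0.025 for norpA in neurons, and abundance-trend offsets -0.002 for Arr2 and 0.03 for norpA in brat numb RNAi.

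Leaving out 1 library each, H3K4me3 over type I neuroblasts ranged in neurons from -0.40 to 0.52 at inaC and -0.53 to 1.42 at ninaE, in brat RNAi from -0.08 to 2.88 at Arr1, and in brat numb RNAi from -0.91 to 0.53 at Arr2 and -0.38 to 0.086 at norpA. Arr2 in brat numb over brat RNAi ranged from -0.016 to 1.26. For H3K27me3 the ranges in neurons were -0.22 to 0.022 at Arr1, -0.79 to 1.32 at inaD, -0.68 to 0.61 at ninaC and -0.18 to 0.21 at norpA, and -0.23 to 0.42 at Arr2 in brat numb RNAi. In a fit without a library, the lone one left is assumed to vary like the other groups.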
